A study of Mus musculus with 82 samples.

Results

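OT-I cells that met plain ovalbumin (OVA) in the mouse were compared with OT-I cells that did not, in 10 of the 82 libraries of the series, 5 from mice given OVA and 5 from mice given saline. The libraries were chosen by their labels, as every OT-I library of the prophylactic experiment marked OVA or saline. Of each group, 3 libraries belong to batch 1 and 2 to batch 2, as the labels name them. In the OVA group, C57BL/6 mice had received 5 µg of unmodified ovalbumin, and in the saline group C57BL/6 mice had received saline without antigen. Mice of both groups carried transferred OT-I and OT-II cells, which had been given together 1 day before the injection. Spleens and lymph nodes were taken 4 days after the injection, and OT-I cells were sorted into Trizol. Each library holds the cells of 3 pooled mice, so the spread between libraries is a spread between pools and single mice were not seen. The labels give no cell number, age, sex or sorting gate. Messenger RNA was amplified with the SmartSeq v4 protocol and sequenced in read pairs.

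OT-I cells are CD8 T cells with a transgenic antigen receptor that recognizes an ovalbumin peptide on the class I molecule Kb. A naive CD8 T cell that meets its peptide on a dendritic cell leaves quiescence and divides. It can then turn on genes of killing, migration and cytokine production, or enter a tolerant state marked by inhibitory receptors, depending on costimulation and inflammation. Soluble protein without adjuvant is a common way to show T cells an antigen with little of both.

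Estimated counts summed to 33.5 to 63.9 M per OVA library and to 53.9 to 68.2 M per saline library. In batch 1 all OVA libraries, at 33.5 to 34.3 M, were shallower than all saline libraries, while in batch 2 the totals were 60.2 and 63.9 M in OVA libraries and 58.3 and 66.2 M in saline libraries. Values are given below as CPM, counts scaled to a common library total with TMM factors, in the order batch 1 replicates 1, 2 and 3, then batch 2 replicates 1 and 2. CPM are not divided by gene length, so levels are compared between libraries and not between genes. Cd8a, which encodes a chain of the CD8 coreceptor, had 762, 1070, 1110, 1070 and 1100 CPM in the OVA libraries, against 1060, 1020, 1080, 826 and 1060 CPM in the saline libraries. The sorted cells thus carried CD8 transcripts in both groups, and 0 of the 5 CD8 marker genes tested were called in the edgeR test described next. The other-cell markers set some libraries apart. The 13 B cell markers summed to 266, 206, 292, 214 and 1780 CPM in the OVA libraries, against 542, 208, 192, 5470 and 226 CPM in the saline libraries. Cd4 stood at 159, 0.331, 1.75, 1.81 and 7.28 CPM in the OVA libraries, against 2.1, 1.98, 1.04, 38.2 and 2.74 CPM in the saline libraries. Batch 2 saline replicate 1 and batch 2 OVA replicate 2 were thus rich in B cell transcripts, and batch 1 OVA replicate 1 in Cd4. The 19 myeloid markers summed to 128 to 302 CPM in OVA and 92.1 to 631 CPM in saline libraries, and the 9 erythroid and platelet markers tested to 68.6 to 180 CPM and 47.5 to 316 CPM in the same order. Where one of these libraries stood far apart for a gene described below and the call changed without them, both values are given, and the part of other cells in any result was not tested.

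Of 13802 genes tested, 744 (5.39%) were called at an adjusted p under 0.05 by edgeR's quasi-likelihood test with Benjamini-Hochberg adjustment and a batch term. The response was mostly one of higher transcripts. In OVA libraries 568 genes (4.12%) were higher and 176 (1.28%) lower than in saline libraries, and the higher genes moved further. Of the higher genes 242 differed by over 2-fold and 87 by over 4-fold, with a median log2 fold change of 0.82. Of the lower genes 19 differed by over 2-fold and 5 by over 4-fold, with a median of -0.54. Over all genes tested the median was 0. Every OVA library stood above every saline library for 352 of the 568 higher genes, and every one stood below for 99 of the 176 lower genes. Over all genes tested these orders held for 492 genes (3.56%) above and 229 (1.66%) below. In a bulk sample, more responding cells and more RNA per responding cell cannot be told apart.

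**Figure D1:**
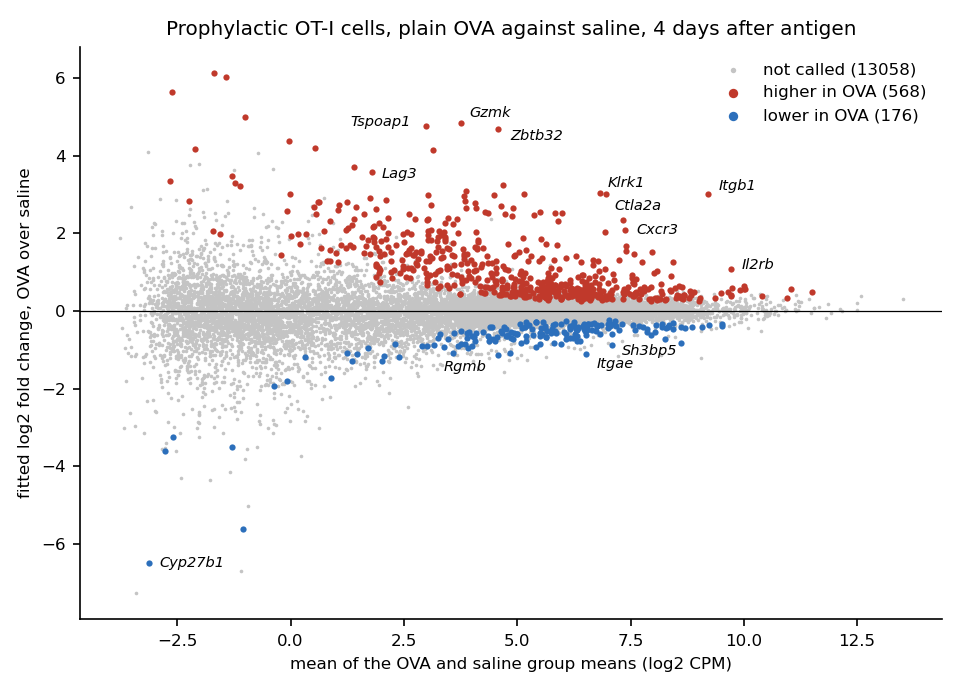
Fitted log2 fold change of OVA over saline (vertical) against the mean level of the gene in log2 CPM (horizontal), 1 point per gene tested. The 568 genes called higher reach over 4-fold in 87 cases, the 176 called lower in 5.

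The calls rest on both batches together, so the called genes' shared direction in the 2 batches is largely set by the call itself. Batch 1 alone gave 637 called genes and batch 2 alone 19. The number of calls depended on single libraries. Leaving out 1 of the 10 libraries at a time gave 316 to 888 called genes. The counts fell by over 1.5 times without batch 1 OVA replicate 2 (316 genes), without batch 1 saline replicate 3 (463), without batch 2 saline replicate 1 (490) and without batch 2 saline replicate 2 (356). With the 10 OVA and saline libraries alone 808 genes were called, of which 639 were among the 744. The fit behind the 744 also holds the 5 OT-I libraries labelled pGal, of which batch 1 replicate 2 had 202 CPM of Cd4. That library and those named above as rich in B cell transcripts or Cd4 form the OT-I libraries rich in other cells' transcripts. Without these libraries 312 genes were called, 286 higher and 26 lower, of which 275 were among the 744. That fit has fewer libraries, and of batch 2 it kept only OVA replicate 1 and saline replicate 2 in the 2 groups compared. Calls lost in it can therefore come from fewer libraries or from fewer transcripts of other cells, which cannot be told apart. Within the 568 higher genes, batch 1 OVA replicate 2 had the highest value of the 5 OVA libraries for 239 genes and batch 2 OVA replicate 2 for 171. Batch 1 OVA replicate 1 had the lowest for 254 and batch 2 OVA replicate 1 for 165. Of 149 called genes that the naming rule took and that are reported here, 92 stayed called in each of the 10 fits that left out 1 library. Where a gene named below is one of the other 57, the number of those 10 fits that lost it is given. Called genes named outside the rule were not followed through these fits, so a missing number does not mean that they stayed called. They are Tuba1b, Nfatc1, Itgax, Jaml, Anxa5, Actg1, Bbc3, Nop56, Rrs1 and the 5 genes lower by over 4-fold.

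**Figure D2:**
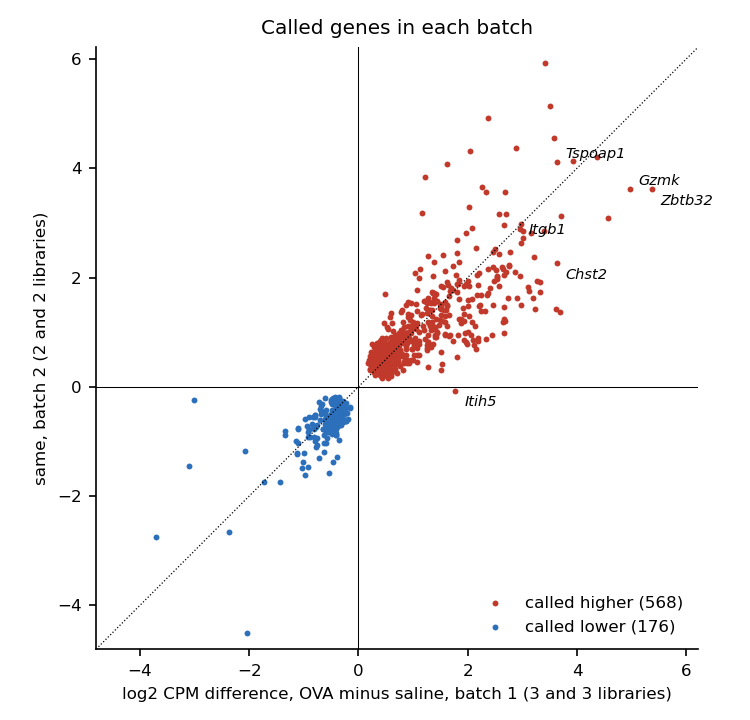
Difference in mean log2 CPM, OVA minus saline, in batch 1 (horizontal, 3 and 3 libraries) and batch 2 (vertical, 2 and 2 libraries) for the 744 genes called over both batches together, which largely sets the shared sign. Points lie in the quadrants of equal sign except Itih5, at 1.76 and -0.08; the dotted line marks equal differences.

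Genes of cell division had the highest medians among the 36 gene lists. Among cyclins, cyclin-dependent kinases and E2F factors 14 of 25 genes tested were higher and none lower, with a median log2 fold change of 1. Mitotic kinases and checkpoint genes followed with 14 of 24 higher and none lower (median 1.04), and centromere and kinetochore genes with 11 of 24 and none (median 0.96). Spindle, condensin and cytokinesis genes had 17 of 32 higher and 1 lower (median 1.12). The corresponding shares over all genes tested were 4.12% higher and 1.28% lower, and every list count below is to be read beside them. Without the libraries rich in other cells' transcripts the higher counts were 11, 6, 6 and 14, and the medians 1.14, 0.98, 0.95 and 1.25, where 286 of all 14012 genes tested in that fit were higher.

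Cyclin B1, the cyclin whose complex with Cdk1 drives entry into mitosis, stood out by its small p. Ccnb1 had 12.6, 25.8, 17.1, 21.3 and 29.3 CPM in the OVA libraries, against 2.99, 2.69, 3.45, 6.96 and 5.82 CPM in the saline libraries (log2 fold change 2.38 ± 0.27 SE, adjusted p = 0.000301). The groups did not overlap, and the lowest OVA library was above the highest saline library. Ccna2, the cyclin of S phase and early mitosis, had 15.2, 44.2, 22.3, 24.8 and 39.5 CPM in the OVA libraries, against 4.28, 4.12, 2.71, 5.07 and 8.64 CPM in the saline libraries (log2 fold change 2.65 ± 0.40 SE, adjusted p = 0.00177). Birc5 encodes survivin, a subunit of the chromosomal passenger complex that also includes Aurora kinase B. It had 25.6, 58.9, 32.1, 23.3 and 35.3 CPM in the OVA libraries, against 8.79, 6.14, 5.28, 4.43 and 5.92 CPM in the saline libraries (log2 fold change 2.52 ± 0.34 SE, adjusted p = 0.000783). In both genes the OVA libraries lay apart from the saline libraries, and batch 1 OVA replicate 2 was the highest of all. The log2 fold changes of further members were 2.55 for Ccnb2, 1.97 for Aurkb, 2.03 for Plk1, the kinase of centrosome maturation, and 1.62 for Ccnf, with adjusted p of 0.00322, 0.0047, 0.00694 and 0.00323.

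Kinetochore and spindle genes were higher as well. Cenpe, a motor that links chromosomes to microtubules, had 9.74, 20.6, 9.85, 14 and 21.6 CPM in the OVA libraries, against 3.87, 4.59, 4.37, 4.24 and 2.47 CPM in the saline libraries (log2 fold change 1.91 ± 0.31 SE, adjusted p = 0.00228). Cenpa, the histone H3 variant of centromeres, had 77.3, 117, 78.4, 43.1 and 50.9 CPM in the OVA libraries, against 41.1, 29.7, 40.7, 26.7 and 27.5 CPM in the saline libraries (log2 fold change 1.11 ± 0.17 SE, adjusted p = 0.00194). The groups did not overlap for either gene, but for Cenpa the lowest OVA library, at 43.1 CPM, was close to the highest saline library, at 41.1 CPM. Nuf2 and Spc24, both in the complex that grips microtubule ends, had log2 fold changes of 1.99 (adjusted p = 0.00666) and 1.54 (adjusted p = 0.0052). Ckap2l, a spindle pole protein, had 6.92, 15.1, 11.3, 10.5 and 20.7 CPM in the OVA libraries, against 3.3, 1.64, 2.16, 4.84 and 5.72 CPM in the saline libraries (log2 fold change 1.96 ± 0.28 SE, adjusted p = 0.000954). Ncapg, a condensin subunit, had a log2 fold change of 2.25 (adjusted p = 0.00199), Prc1, which bundles the microtubules of the midzone, 1.92 (adjusted p = 0.00226), Kif11, a motor that separates spindle poles, 2.08 (adjusted p = 0.00333), and Top2a, the DNA decatenating topoisomerase, 1.51 (adjusted p = 0.00229). The exception in direction was Tuba1b, an alpha tubulin gene, with 611, 559, 550, 757 and 672 CPM in the OVA libraries, against 798, 783, 854, 768 and 925 CPM in the saline libraries (log2 fold change -0.39 ± 0.10 SE, adjusted p = 0.0266).

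Genes of DNA replication were called in part. Of the licensing and initiation genes 5 of 20 (25%) were higher (median 0.31), and of deoxynucleotide synthesis genes 5 of 14 (35.7%, median 0.24). Of fork proteins and DNA polymerases 2 of 28 (7.14%, median 0.18) were higher, against 4.12% over all genes tested. None of the 3 lists had a lower gene. Cdc6, which loads the replicative helicase on origins, had 12.4, 28.8, 15.5, 14.6 and 15.1 CPM in the OVA libraries, against 5.74, 6.03, 4.78, 6.61 and 9.06 CPM in the saline libraries (log2 fold change 1.45 ± 0.28 SE, adjusted p = 0.00722). Rrm2, the regulatory subunit of ribonucleotide reductase, had 57.2, 123, 63.2, 55.8 and 77.8 CPM in the OVA libraries, against 20.2, 18.9, 17.7, 28.3 and 37.8 CPM in the saline libraries (log2 fold change 1.72 ± 0.37 SE, adjusted p = 0.016). OVA and saline libraries did not overlap for these 2 genes. Tyms and Tk1, which make thymidine nucleotides, had log2 fold changes of 1.29 (adjusted p = 0.00772) and 1.65 (adjusted p = 0.00813). The helicase subunit Mcm5 was not called, with 120, 173, 147, 190 and 168 CPM in the OVA libraries, against 125, 130, 104, 146 and 141 CPM in the saline libraries (log2 fold change 0.30 ± 0.11 SE, adjusted p = 0.117). Cell cycle inhibitors had 0 of 11 tested genes called in either direction, with a median of 0.1. In the repair list 3 of 25 genes (12%) were higher, among them Fancd2 of the Fanconi pathway (log2 fold change 2.26, adjusted p = 0.0161) and the helicase gene Brip1 (log2 fold change 1.11, adjusted p = 0.0482). Fancd2 was lost in 1 of 10 leave-one-out fits (without batch 1 OVA replicate 2, adjusted p = 0.0547) and Brip1 in 8. Fancd2 was highest in batch 2 OVA replicate 2, and without the libraries rich in other cells' transcripts its log2 fold change was 1.92 (adjusted p = 0.0881).

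**Figure D3:**
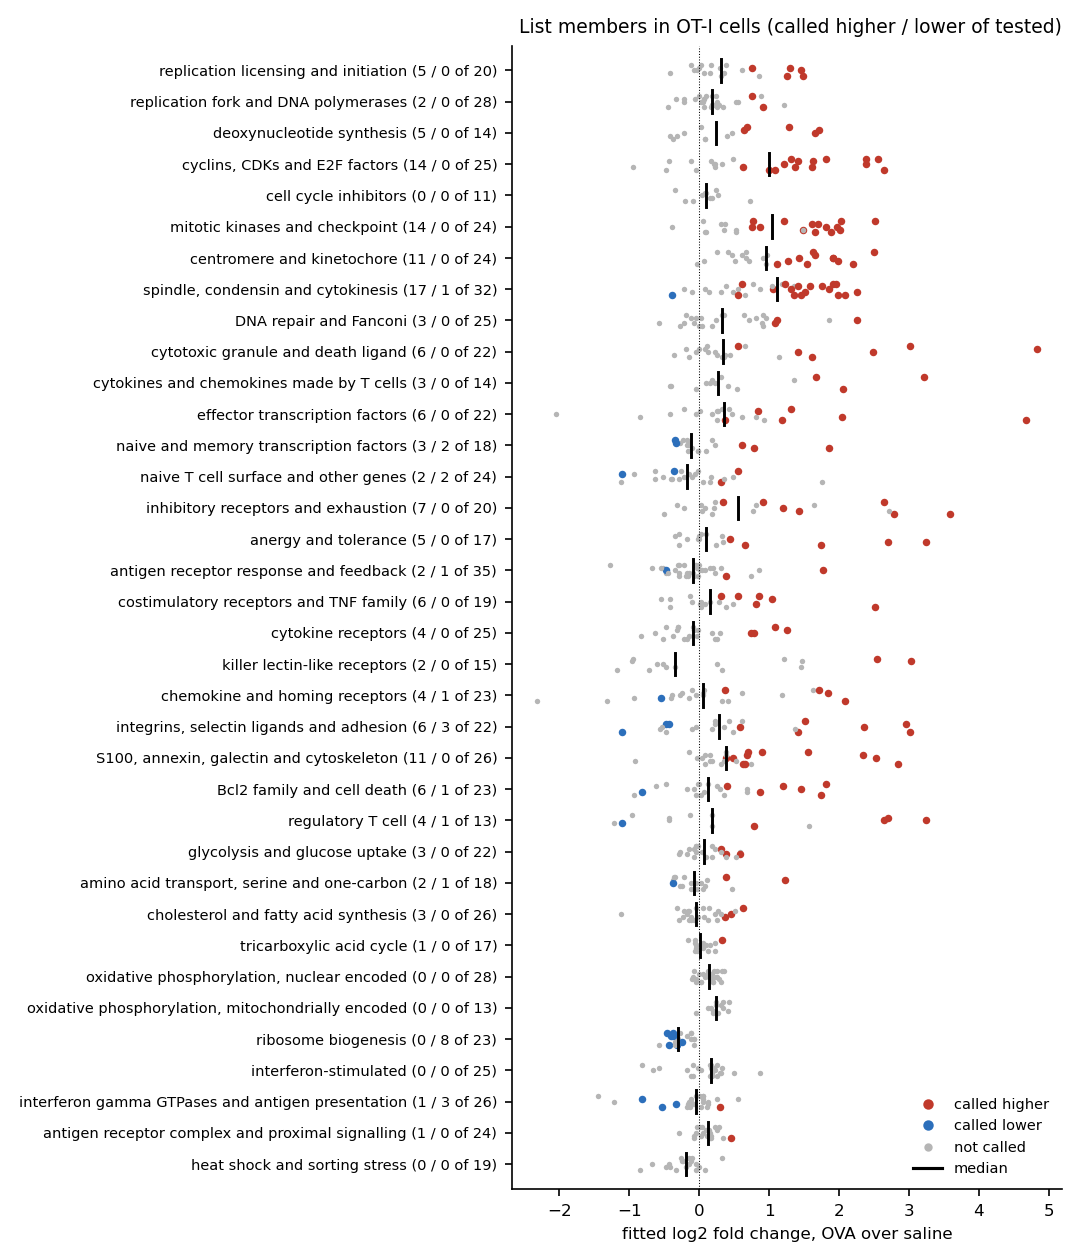
Fitted log2 fold change of OVA over saline for each tested member of the 36 gene lists, 1 point per gene, with the list's median as a black bar and the numbers called higher and lower beside its name. The 4 lists of cyclins, mitotic kinases, kinetochore and spindle have medians of 0.96 to 1.12, and ribosome biogenesis has 8 of 23 genes called lower.

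Promoters of these genes are shown because the division lists moved together. In animal cells, many late cell cycle genes carry a cell cycle homology region (CHR, letters TTTGAA) near CCAAT boxes (letters CCAAT), and many replication genes carry E2F motifs (letters TTCCCGC). Motifs were searched on both strands in RefSeq promoters of build GRCm38.p6, from 250 bases before to 50 after the start. Of the 80 tested genes of the kinase, kinetochore and spindle lists 67 matched the promoter table, with 73 promoters, and of 62 tested replication genes 52 matched, with 65 promoters. TTTGAA occurred in 60.3% of the mitosis promoters and in 16.9% of the replication promoters, and in 17.9% of all 32817 promoters of the table. CCAAT occurred in 72.6%, 49.2% and 37.4% of the same sets, and TTCCCGC in 11%, 29.2% and 4.6%. A CHR and a CCAAT box together occurred in 50.7%, 6.15% and 6.94%. These are counts of letters and not of bound sites. The lines below give the promoters of the 3 called mitosis genes with the smallest p among those with both motifs and a single listed start, and of the 2 called replication genes chosen likewise for TTCCCGC; capitals mark CHR, CCAAT and E2F letters on either strand. In the 5 sequences no motif overlaps another. They lie at chr2:129297163-129297462 on the minus strand for Ckap2l, chr5:30666636-30666935 on the plus strand for Cenpa, chr5:45669675-45669974 on the plus strand for Ncapg, chr11:98907901-98908200 on the plus strand for Cdc6 and chr17:56040166-56040465 on the plus strand for Chaf1a, and are written from 5′ to 3′ along the gene.
Ckap2l: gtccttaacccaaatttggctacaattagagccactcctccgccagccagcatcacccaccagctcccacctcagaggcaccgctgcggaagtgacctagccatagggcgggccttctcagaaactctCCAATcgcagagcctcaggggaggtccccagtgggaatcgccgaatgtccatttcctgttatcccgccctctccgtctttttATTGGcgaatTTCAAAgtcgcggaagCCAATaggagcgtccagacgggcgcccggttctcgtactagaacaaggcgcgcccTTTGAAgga
Cenpa: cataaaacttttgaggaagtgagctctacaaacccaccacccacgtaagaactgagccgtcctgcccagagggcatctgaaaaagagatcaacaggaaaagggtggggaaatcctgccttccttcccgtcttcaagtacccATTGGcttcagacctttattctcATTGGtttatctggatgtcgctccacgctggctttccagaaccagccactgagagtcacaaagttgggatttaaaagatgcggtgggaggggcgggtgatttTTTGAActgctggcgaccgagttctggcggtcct
Ncapg: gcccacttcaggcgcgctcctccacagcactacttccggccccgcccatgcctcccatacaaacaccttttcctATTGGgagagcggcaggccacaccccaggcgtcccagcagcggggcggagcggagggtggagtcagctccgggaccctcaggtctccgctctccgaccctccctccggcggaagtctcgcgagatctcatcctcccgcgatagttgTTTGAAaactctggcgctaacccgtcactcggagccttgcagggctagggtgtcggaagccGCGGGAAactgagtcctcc
Cdc6: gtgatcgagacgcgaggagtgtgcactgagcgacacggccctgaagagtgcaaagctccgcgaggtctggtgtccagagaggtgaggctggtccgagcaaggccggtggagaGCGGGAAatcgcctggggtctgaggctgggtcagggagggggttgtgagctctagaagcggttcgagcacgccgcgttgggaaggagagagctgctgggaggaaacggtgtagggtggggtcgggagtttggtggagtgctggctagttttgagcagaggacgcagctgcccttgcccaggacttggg
Chaf1a: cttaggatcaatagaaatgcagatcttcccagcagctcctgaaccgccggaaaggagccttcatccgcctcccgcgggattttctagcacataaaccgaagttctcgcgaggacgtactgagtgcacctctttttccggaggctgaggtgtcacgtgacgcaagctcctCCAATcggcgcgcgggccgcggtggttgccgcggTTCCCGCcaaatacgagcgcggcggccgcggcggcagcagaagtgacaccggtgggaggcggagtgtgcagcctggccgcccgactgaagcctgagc
Counting from the start of the gene to the first letter of a match, Ckap2l has CHR letters at positions -30 and 42 and CCAAT letters at -122, -40 and -14. Cenpa has CHR letters at 17 and CCAAT letters at -109 and -86, and Ncapg has them at -30 and -176 beside E2F letters at 32. Cdc6 has E2F letters at -138, and Chaf1a has E2F letters at -47 and CCAAT letters at -81. Chaf1a, a subunit of the chromatin assembly factor of replication forks, had a log2 fold change of 0.91 (adjusted p = 0.033) and was lost in 7 of 10 leave-one-out fits.

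Cytotoxic genes rose in part. Of 22 tested granule and death ligand genes 6 (27.3%) were higher and none lower (median 0.34). Granzyme K and granzyme B had the largest fold changes of the list, and their values varied widely among the OVA libraries. Gzmk had 12.5, 55.9, 16.8, 12.6 and 31.4 CPM in the OVA libraries, against 0.918, 0.569, 0.629, 0.852 and 2.93 CPM in the saline libraries (log2 fold change 4.83 ± 0.70 SE, adjusted p = 0.00194). Gzmb had 46.4, 138, 41.9, 33.4 and 53.4 CPM in the OVA libraries, against 7.45, 6.64, 5.3, 14.2 and 8.66 CPM in the saline libraries (log2 fold change 3.01 ± 0.50 SE, adjusted p = 0.00391). The groups did not overlap, and both granzymes were highest in batch 1 OVA replicate 2. Gzma had 46.5, 186, 38.2, 19.2 and 58.9 CPM in the OVA libraries, against 11.4, 10.4, 10.4, 27.2 and 7.79 CPM in the saline libraries (log2 fold change 2.48 ± 0.65 SE, adjusted p = 0.0454). Here the groups overlapped, and the call was lost in 8 of 10 leave-one-out fits. Gzma is also an NK cell gene, and without the libraries rich in other cells' transcripts its log2 fold change was 2.98 (adjusted p = 0.0472). The 9 NK markers, Gzma among them, summed to 152, 366, 178, 164 and 215 CPM in the OVA libraries, against 110, 101, 88.8, 183 and 111 CPM in the saline libraries. The sum was highest in batch 1 OVA replicate 2, where Gzma alone gave 186 of the 366 CPM. That it peaked in the same library as the 3 granzymes is thus partly set by Gzma itself. Of the 9, Gzma and Eomes were called higher (22.2%, against 4.12% over all genes tested) and none lower. Only 3 of the 9 had a log2 fold change above 0, and the median was -0.63. Ncr1, a defining NK marker, was at 0.723 to 4.05 CPM in OVA and 1.04 to 13.5 CPM in saline libraries. The part of NK cells in these values was not tested. Serpinb6b, from a family of serine protease inhibitors, had 33, 76.5, 58.5, 60.1 and 58.9 CPM in the OVA libraries, against 23.1, 19.3, 20.3, 20.5 and 24.3 CPM in the saline libraries (log2 fold change 1.42 ± 0.25 SE, adjusted p = 0.00453), with no overlap. Perforin was not called, and Prf1 had 96.2, 152, 160, 133 and 124 CPM in the OVA libraries, against 147, 151, 163, 140 and 159 CPM in the saline libraries (log2 fold change -0.19 ± 0.12 SE, adjusted p = 0.423). Gzmm had a log2 fold change of 1.61 (adjusted p = 0.0194) and was lost in 2 of 10 leave-one-out fits, without batch 1 OVA replicate 2 (adjusted p = 0.0626) and without batch 2 saline replicate 2 (0.0554). Ctsd, the lysosomal protease cathepsin D, had a log2 fold change of 0.55 (adjusted p = 0.0313) and was lost in 6.

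Among 14 tested cytokines and chemokines 3 (21.4%) were higher and none lower. Ccl5, a chemokine stored by memory and effector CD8 T cells, had 188, 478, 213, 160 and 246 CPM in the OVA libraries, against 86.9, 95.6, 78.5, 74.9 and 66.6 CPM in the saline libraries (log2 fold change 1.67 ± 0.31 SE, adjusted p = 0.00692). Ifng had 6.8, 9.64, 12.6, 10.4 and 26.6 CPM in the OVA libraries, against 1.8, 3.13, 2.14, 4.75 and 3.95 CPM in the saline libraries (log2 fold change 2.05 ± 0.43 SE, adjusted p = 0.0109). Neither gene overlapped between the groups. Interleukin 2, the T cell growth factor, was low in both groups. Il2 had 1.04, 0.633, 0.844, 0.875 and 0.748 CPM in the OVA libraries, against 0.14, 0.0569, 0.018, 0.231 and 0.0171 CPM in the saline libraries (log2 fold change 3.21 ± 0.69 SE, adjusted p = 0.013). Without the libraries rich in other cells' transcripts the log2 fold changes were 2 for Ifng (adjusted p = 0.052) and 3.48 for Il2 (adjusted p = 0.0544). Neither gene was called in that fit of fewer libraries, though the folds were about as large. Their SEs were 0.48 and 0.85 there, and the reason for the lost calls was not tested.

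Transcription factors of effector cells were called in 6 of 22 cases (27.3%), all higher (median 0.35). Ikzf3, which encodes Aiolos, had 150, 240, 219, 204 and 256 CPM in the OVA libraries, against 73.2, 75.8, 76.7, 114 and 99.1 CPM in the saline libraries (log2 fold change 1.32 ± 0.18 SE, adjusted p = 0.000764). All OVA libraries were above all saline libraries. Runx2, a factor of the Runx family, had 7.76, 18.7, 19.2, 20.4 and 19.8 CPM in the OVA libraries, against 9.58, 5.77, 6.75, 5.3 and 9.12 CPM in the saline libraries (log2 fold change 1.19 ± 0.27 SE, adjusted p = 0.0182) and was lost in 3 of 10 leave-one-out fits. Its lowest OVA library, batch 1 replicate 1, lay within the saline range. Zbtb32, a zinc finger repressor induced in activated lymphocytes, had a log2 fold change of 4.68 (adjusted p = 0.00017), Tbx21, which encodes T-bet, 2.04 (adjusted p = 0.000793), Eomes 0.84 (adjusted p = 0.0234) and Batf 0.37 (adjusted p = 0.00598). Eomes was lost in 4 of 10 leave-one-out fits, and Batf without the libraries rich in other cells' transcripts, where its log2 fold change was again 0.37 (adjusted p = 0.0591). Prdm1, which encodes Blimp-1, was not called (log2 fold change 0.61, adjusted p = 0.514).

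Factors of naive and memory cells moved in both directions, with 3 higher (16.7%) and 2 lower (11.1%) of 18 tested (median -0.12). Myb, a factor of progenitor and memory T cells, had 75.9, 78.6, 72.3, 52.6 and 78.4 CPM in the OVA libraries, against 15.2, 21.7, 20.1, 25.2 and 18.1 CPM in the saline libraries (log2 fold change 1.86 ± 0.23 SE, adjusted p = 0.000497). Id3, an inhibitor of E proteins, had 295, 275, 304, 317 and 294 CPM in the OVA libraries, against 223, 190, 187, 182 and 191 CPM in the saline libraries (log2 fold change 0.61 ± 0.10 SE, adjusted p = 0.00226). Both genes were higher without overlap between the groups. Ikzf2, which encodes Helios, was higher as well (log2 fold change 0.79, adjusted p = 0.00861). The log2 fold change was 0.84 without the libraries rich in other cells' transcripts, where it was no longer called (adjusted p = 0.0631). Tcf7, which encodes TCF-1, was not called and had 1850, 1720, 1720, 1680 and 1390 CPM in the OVA libraries, against 1550, 1620, 1640, 1320 and 1660 CPM in the saline libraries (log2 fold change 0.10 ± 0.08 SE, adjusted p = 0.565). Its partner in naive T cells Lef1 was lower (log2 fold change -0.35, adjusted p = 0.0285), and so was the chromatin organizer Satb1 (log2 fold change -0.33, adjusted p = 0.0385), with the calls lost in 5 and 7 of 10 leave-one-out fits.

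Surface genes of naive T cells had few calls in number, with 2 higher and 2 lower of 24 tested (median -0.18). These shares, 8.33% each, compare with 4.12% higher and 1.28% lower over all genes tested. The receptor gene Il7r was below the saline range in all OVA libraries but not called (log2 fold change -0.63, adjusted p = 0.0543), with 184, 245, 254, 303 and 273 CPM in the OVA libraries, against 408, 428, 421, 343 and 375 CPM in the saline libraries. Neither was Ccr7 (log2 fold change -0.39, adjusted p = 0.146). The larger drop of the 2 lower genes was that of Itgae, the integrin chain CD103 that binds E-cadherin. It had 45.1, 35.8, 71.5, 78.7 and 59 CPM in the OVA libraries, against 135, 109, 127, 104 and 151 CPM in the saline libraries (log2 fold change -1.10 ± 0.27 SE, adjusted p = 0.0299), without overlap, and was lost in 6 of 10 leave-one-out fits. Cd55, a complement regulator, had a log2 fold change of -0.36 (adjusted p = 0.0194), while Ms4a4b (log2 fold change 0.56, adjusted p = 0.0328) and Cd27 (log2 fold change 0.31, adjusted p = 0.0296) were higher. They were lost in 2, 7 and 7 of those fits, Cd55 without batch 1 saline replicate 3 (adjusted p = 0.0578) and without batch 1 OVA replicate 2 (0.0527).

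**Figure D4:**
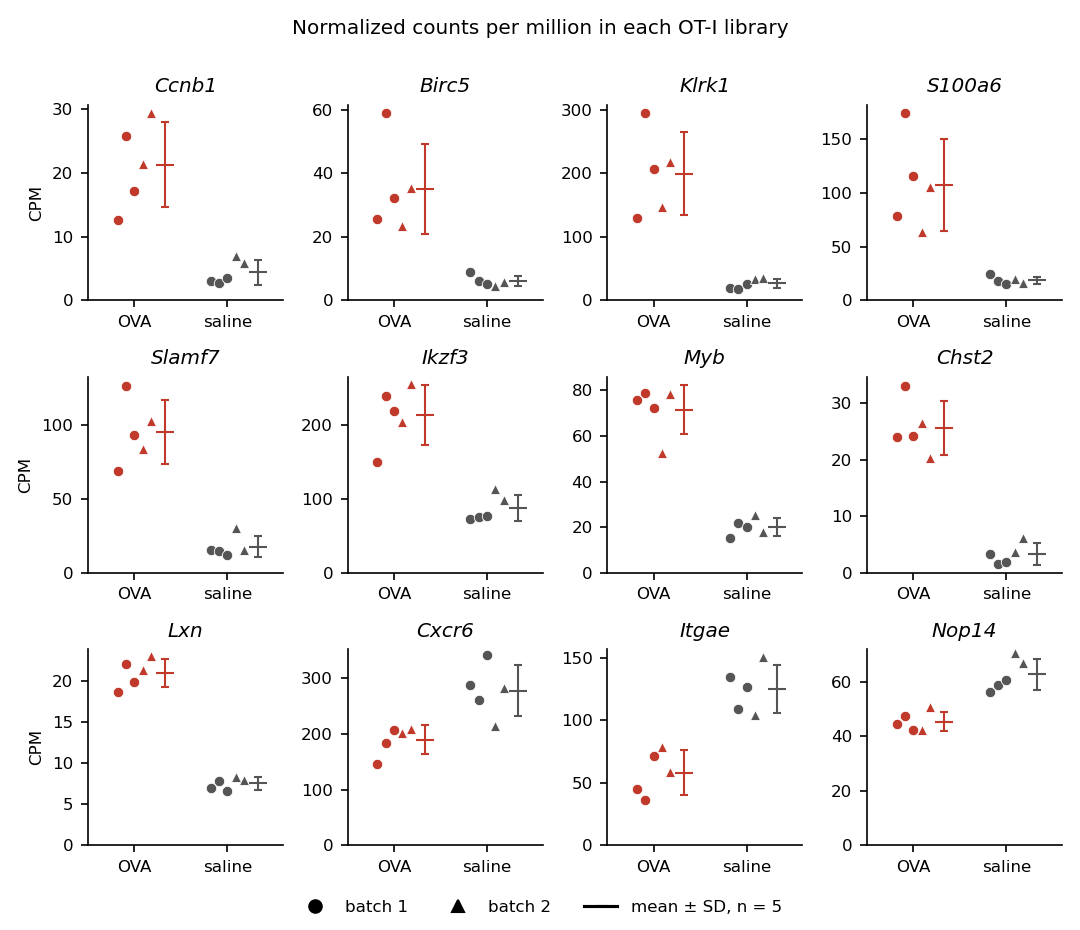
Normalized CPM of 12 genes in each OT-I library, OVA left of saline in each panel; circles are batch 1, triangles batch 2, and bars give the mean ± SD of 5 libraries. Cxcr6, Itgae and Nop14 are lower in OVA libraries, the other 9 genes higher.

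Genes of inhibitory receptors and exhaustion followed, with 7 of 20 tested genes (35%) higher and none lower (median 0.56). Lag3, Pdcd1 and Ctla4 led by p, with log2 fold changes of 3.58 (adjusted p = 3.48e-05), 2.79 (adjusted p = 0.000331) and 2.65 (adjusted p = 0.000778). Cd160, a receptor for the TNF family receptor HVEM, had 93.3, 157, 109, 94.3 and 115 CPM in the OVA libraries, against 70.9, 53.1, 61.4, 53.9 and 61 CPM in the saline libraries (log2 fold change 0.92 ± 0.20 SE, adjusted p = 0.0134). Tigit had 3.9, 7.96, 3.98, 3.5 and 6.43 CPM in the OVA libraries, against 2.94, 1.41, 2.5, 2.09 and 2.24 CPM in the saline libraries (log2 fold change 1.20 ± 0.31 SE, adjusted p = 0.0336), and Cd200, the ligand of an inhibitory myeloid receptor, had 27.4, 17.4, 17.5, 13.8 and 26.8 CPM in the OVA libraries, against 5.86, 5.82, 5.53, 16.3 and 6.03 CPM in the saline libraries (log2 fold change 1.43 ± 0.37 SE, adjusted p = 0.0368). The first of these 3 and Tigit showed no overlap between the groups, whereas for Cd200 batch 2 saline replicate 1, the library richest in B cell transcripts, reached the OVA range. Tigit was lost in 6 and Cd200 in 8 of 10 leave-one-out fits. Without the libraries rich in other cells' transcripts, that saline library included, the log2 fold change of Cd200 was 1.46 (adjusted p = 0.00556), while Tigit was not called (1.16, adjusted p = 0.161). Nfatc1, a factor downstream of the antigen receptor, was the other called member (log2 fold change 0.34, adjusted p = 0.0372). Not called were Tox (log2 fold change 0.23, adjusted p = 0.208) and Havcr2 (log2 fold change 1.64, adjusted p = 0.35).

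In the anergy and tolerance list 5 of 17 tested genes (29.4%) were higher and none lower (median 0.1). Izumo1r, the folate receptor 4 gene of regulatory and anergic CD4 T cells, had 63.2, 22.4, 40.9, 40.6 and 50.3 CPM in the OVA libraries, against 7.56, 4.83, 4.94, 8.2 and 8.18 CPM in the saline libraries (log2 fold change 2.70 ± 0.56 SE, adjusted p = 0.0147). Its highest value was in batch 1 OVA replicate 1, the library with 159 CPM of Cd4, and without the libraries rich in other cells' transcripts the log2 fold change was 2.37 (adjusted p = 0.00272). Nrp1, a semaphorin receptor, had 21.7, 25.6, 60.6, 61.4 and 59.7 CPM in the OVA libraries, against 3.17, 2.83, 3.09, 12.6 and 5.51 CPM in the saline libraries (log2 fold change 3.24 ± 0.44 SE, adjusted p = 0.000972). Both genes separated the groups without overlap. Sh2d2a, an adaptor of the antigen receptor pathway, had a log2 fold change of 0.65 (adjusted p = 0.00276) and the ubiquitin ligase gene Cblb 0.44 (adjusted p = 0.0186), with the call on Cblb lost in 3 of 10 leave-one-out fits. The regulatory T cell list shares Izumo1r, Nrp1, Ctla4, Ikzf2 and Itgae with other lists. These 5 were the called members among its 13 tested genes, 4 higher (30.8%) and Itgae lower (7.69%). Foxp3, the defining factor of that lineage, was at 0.557 to 2.82 CPM in OVA libraries and 0.462 to 9.33 CPM in saline libraries.

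Costimulatory receptors were higher in 6 of 19 cases (31.6%) and lower in none (median 0.15). Slamf7 had 69, 127, 93.6, 84 and 103 CPM in the OVA libraries, against 15.8, 14.9, 12.4, 30.5 and 15.4 CPM in the saline libraries (log2 fold change 2.52 ± 0.31 SE, adjusted p = 0.000704). Slamf6 had 325, 361, 380, 371 and 403 CPM in the OVA libraries, against 192, 180, 180, 159 and 171 CPM in the saline libraries (log2 fold change 1.04 ± 0.18 SE, adjusted p = 0.00346), and Cd28 had 303, 280, 245, 227 and 200 CPM in the OVA libraries, against 151, 145, 170, 109 and 136 CPM in the saline libraries (log2 fold change 0.82 ± 0.14 SE, adjusted p = 0.00321). All 3 are receptors that T cells use in contact with other cells, and none of the 3 overlapped between the groups. Icos had a log2 fold change of 0.55 (adjusted p = 0.0143) and was lost without batch 1 OVA replicate 2 (adjusted p = 0.0561). Tnfsf14, the TNF family ligand LIGHT, had a log2 fold change of 0.85 (adjusted p = 0.0382) and was lost in 8 of 10 leave-one-out fits.

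Cytokine receptors were called in 4 of 25 cases (16%), all higher (median -0.09). Il2rb, the beta chain for interleukins 2 and 15, had 734, 1420, 1230, 1170 and 1150 CPM in the OVA libraries, against 511, 526, 527, 519 and 600 CPM in the saline libraries (log2 fold change 1.09 ± 0.18 SE, adjusted p = 0.00273). Il12rb1 had 9.09, 13.8, 11.1, 11.4 and 11.2 CPM in the OVA libraries, against 6.75, 5.73, 6.14, 7.67 and 7.7 CPM in the saline libraries (log2 fold change 0.74 ± 0.16 SE, adjusted p = 0.0109). Both separated the groups. The alpha chain gene Il2ra did not, with 13.2, 2.59, 2.62, 2.99 and 8.14 CPM in the OVA libraries, against 4.68, 4.36, 4.58, 11.1 and 1.01 CPM in the saline libraries (log2 fold change 0.18 ± 0.55 SE, adjusted p = 0.904). Il10ra had a log2 fold change of 1.26 (adjusted p = 0.019) and Il18rap 0.78 (adjusted p = 0.0442). They were lost in 1 of 10 leave-one-out fits (without batch 1 OVA replicate 2, adjusted p = 0.0618) and in 8. In saline libraries Il10ra was highest, at 89.3 CPM, in the library richest in B cell transcripts, against 37.6 to 44.4 CPM in the other saline libraries. The log2 fold change of Il10ra was 1.49 (adjusted p = 0.0304) without the libraries rich in other cells' transcripts.

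Of 15 killer lectin-like receptor genes tested 2 (13.3%) were higher and none lower, with a median of -0.35. Klrk1, which encodes the activating receptor NKG2D, had 129, 294, 207, 147 and 218 CPM in the OVA libraries, against 19.9, 18.7, 26.2, 33.8 and 35.2 CPM in the saline libraries (log2 fold change 3.03 ± 0.43 SE, adjusted p = 0.00165). Klrc1, which encodes the inhibitory receptor NKG2A, had 51, 149, 72.7, 34.8 and 74.1 CPM in the OVA libraries, against 11.3, 10.4, 15.7, 17.7 and 15.4 CPM in the saline libraries (log2 fold change 2.54 ± 0.49 SE, adjusted p = 0.00924). The groups did not overlap for either. Klrg1, a marker of short-lived effector cells, was not called and had 2.96, 8.38, 2.14, 3.37 and 5.1 CPM in the OVA libraries, against 1.09, 1.18, 1.65, 5.44 and 1.04 CPM in the saline libraries (log2 fold change 1.21 ± 0.45 SE, adjusted p = 0.138). Its highest saline value was in batch 2 saline replicate 1, the one with the largest sum of B cell markers. Klrg1 was called, with a log2 fold change of 1.88 (adjusted p = 0.0452), when the libraries rich in other cells' transcripts were left out.

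Among chemokine and homing receptors 4 of 23 (17.4%) were higher and 1 (4.35%) was lower (median 0.05). Cxcr3, the receptor for interferon-induced chemokines, had 201, 297, 298, 298 and 244 CPM in the OVA libraries, against 56.2, 51.9, 56.5, 68.6 and 103 CPM in the saline libraries (log2 fold change 2.08 ± 0.27 SE, adjusted p = 0.000726). Cxcr5, the receptor that guides cells to B cell follicles, had 65, 89.5, 84.6, 86 and 112 CPM in the OVA libraries, against 15.6, 20.7, 20.3, 68.7 and 26.8 CPM in the saline libraries (log2 fold change 1.71 ± 0.27 SE, adjusted p = 0.00239). The groups did not overlap for Cxcr3. They did for Cxcr5, since batch 2 saline replicate 1 was within the OVA range. That library had 5470 CPM of B cell markers, and B cells express Cxcr5. Without it and the other libraries rich in other cells' transcripts the log2 fold change of Cxcr5 was 2.03 (adjusted p = 0.00463). Cxcr6, a receptor of tissue and liver T cells, was lower. It had 146, 184, 207, 201 and 208 CPM in the OVA libraries, against 287, 260, 342, 215 and 283 CPM in the saline libraries (log2 fold change -0.54 ± 0.12 SE, adjusted p = 0.0161), without overlap, and was lost in 2 of 10 leave-one-out fits, without batch 1 OVA replicate 2 (0.052) and without batch 2 saline replicate 2 (0.0541). Ptger4, a prostaglandin E receptor, had a log2 fold change of 0.37 (adjusted p = 0.0201) and was lost in 4.

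Integrins and adhesion genes were called in both directions, 6 higher (27.3%) and 3 lower (13.6%) of 22 (median 0.28). Itgb1, the common beta chain of the VLA integrins, had a log2 fold change of 3.01 (adjusted p = 0.000726), and 2 of its alpha chain partners were higher too. Itga4 had 260, 375, 325, 412 and 500 CPM in the OVA libraries, against 94.5, 118, 121, 165 and 159 CPM in the saline libraries (log2 fold change 1.52 ± 0.22 SE, adjusted p = 0.00119). Itga2 had 5.84, 16.6, 15.6, 13.4 and 16.4 CPM in the OVA libraries, against 3.2, 2.05, 1.15, 2.53 and 5.26 CPM in the saline libraries (log2 fold change 2.36 ± 0.40 SE, adjusted p = 0.00322). Neither alpha chain overlapped between the groups. Cd44, the hyaluronan receptor of antigen-experienced T cells, had 95.1, 125, 119, 103 and 134 CPM in the OVA libraries, against 48.5, 42, 37.9, 58.7 and 28.2 CPM in the saline libraries (log2 fold change 1.42 ± 0.23 SE, adjusted p = 0.00267). Itgal, the alpha chain of LFA-1, had a log2 fold change of 0.59 (adjusted p = 0.0103), with overlap that followed the batches: 705 to 1020 CPM in OVA against 520 to 588 CPM in saline in batch 1, and 1200 to 1290 CPM against 842 to 950 CPM in batch 2. Itgax, the CD11c chain of dendritic cells that activated CD8 T cells also use, had 12.5, 44.1, 18.7, 9.58 and 33.1 CPM in the OVA libraries, against 2.78, 1.34, 1.44, 14.8 and 2.96 CPM in the saline libraries (log2 fold change 2.96 ± 0.67 SE, adjusted p = 0.0214). The groups overlapped, since batch 2 saline replicate 1 lay above batch 1 OVA replicate 1 and batch 2 OVA replicate 1. That saline library had the highest sum of myeloid markers, at 631 CPM. Of the 19 myeloid markers tested, Itgax among them, 3 had a log2 fold change above 0 (median -0.61), and only Itgax was called. Flt3 of dendritic cells was at 0.493 to 1.57 CPM in OVA and 0.0171 to 8.09 CPM in saline libraries. The part of other cells in Itgax was not tested. Lower were Itgae, Icam1, the ligand of LFA-1 (log2 fold change -0.48, adjusted p = 0.0188), and Jaml, a junction adhesion molecule (log2 fold change -0.43, adjusted p = 0.0346). Icam1 was lost in 2 of 10 leave-one-out fits, without batch 1 OVA replicate 2 (0.0568) and without batch 2 saline replicate 2 (0.0578).

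Small calcium-binding, annexin, galectin and cytoskeletal genes were higher in 11 of 26 cases (42.3%) and lower in none (median 0.39). S100a6 had 78.7, 174, 116, 63.7 and 105 CPM in the OVA libraries, against 24.3, 17.7, 15.6, 19.7 and 16 CPM in the saline libraries (log2 fold change 2.53 ± 0.29 SE, adjusted p = 0.000366). S100a4 had 13.2, 29.9, 19.2, 28.8 and 34.3 CPM in the OVA libraries, against 3.76, 3.64, 1.01, 6.16 and 3.03 CPM in the saline libraries (log2 fold change 2.84 ± 0.38 SE, adjusted p = 0.000726). Both are S100 proteins that effector and memory T cells carry at higher levels than naive cells. Anxa2, which binds membranes together with S100a10, had 167, 357, 278, 255 and 270 CPM in the OVA libraries, against 55.9, 37.9, 44.8, 73.1 and 64.8 CPM in the saline libraries (log2 fold change 2.34 ± 0.29 SE, adjusted p = 0.000726). Lgals1, galectin 1, had 221, 431, 238, 170 and 196 CPM in the OVA libraries, against 104, 112, 101, 53.1 and 60.3 CPM in the saline libraries (log2 fold change 1.56 ± 0.19 SE, adjusted p = 0.000508). None of these 4 overlapped between the groups. S100a10 had a log2 fold change of 0.90 (adjusted p = 0.00309) and S100a13 0.69 (adjusted p = 0.00128), and S100a13 levels differed between batches: 82 to 107 CPM in OVA against 52 to 65.7 CPM in saline in batch 1, and 47.6 and 59.9 CPM against 28.1 and 32.7 CPM in batch 2. The smallest differences of the called members were in Anxa5 (log2 fold change 0.38, adjusted p = 0.0202) and the actin gene Actg1 (log2 fold change 0.48, adjusted p = 0.0192).

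Both survival and death genes were called, with 6 higher (26.1%) and 1 lower (4.35%) of 23 (median 0.13). Bcl2l1, which encodes the survival protein Bcl-xL, had 45.3, 55.9, 54.1, 37.2 and 32.6 CPM in the OVA libraries, against 20.8, 31.2, 27.6, 21.7 and 21.5 CPM in the saline libraries (log2 fold change 0.87 ± 0.17 SE, adjusted p = 0.00779). Bcl2a1b and Bcl2a1d, near-identical copies of the survival gene A1, had log2 fold changes of 1.45 (adjusted p = 0.00128) and 1.81 (adjusted p = 0.000475). Reads of such copies can be split between them by the authors' quantification, so the value of each copy is uncertain. Casp1, the inflammatory caspase, had 18, 21.2, 17.7, 18.3 and 19 CPM in the OVA libraries, against 7.58, 7.01, 6.9, 13.5 and 7.19 CPM in the saline libraries (log2 fold change 1.20 ± 0.22 SE, adjusted p = 0.00425). For Bcl2l1 and Casp1 the OVA libraries were all above the saline libraries. Bcl2 itself was not called (log2 fold change -0.62, adjusted p = 0.119), nor was the pro-death gene Bcl2l11 (log2 fold change 0.25, adjusted p = 0.226). Fas, a death receptor, had a log2 fold change of 0.40 (adjusted p = 0.0313), lost in 7 of 10 leave-one-out fits. Bbc3, which encodes the pro-death protein Puma, was lower, with 43.5, 60.6, 52.6, 33.2 and 17.6 CPM in the OVA libraries, against 100, 76.5, 88.1, 38.6 and 54.9 CPM in the saline libraries (log2 fold change -0.81 ± 0.22 SE, adjusted p = 0.0451). Within each batch its OVA libraries were below the saline libraries, and across batches the ranges overlapped.

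Ribosome biogenesis genes stood out among the lower genes. Of 23 tested members 8 (34.8%) were lower, none was higher and none had a log2 fold change above 0 (median -0.3). Nop14, a factor of small subunit assembly, had 44.6, 47.4, 42.3, 42.4 and 50.8 CPM in the OVA libraries, against 56.5, 59.1, 60.9, 70.6 and 67.1 CPM in the saline libraries (log2 fold change -0.46 ± 0.09 SE, adjusted p = 0.00563). Nop56, a core protein of box C/D ribonucleoproteins, had 287, 265, 280, 232 and 261 CPM in the OVA libraries, against 386, 322, 395, 298 and 381 CPM in the saline libraries (log2 fold change -0.43 ± 0.12 SE, adjusted p = 0.0458). Both were below the saline range in all OVA libraries. Wdr43 (log2 fold change -0.38, adjusted p = 0.0299), the RNA polymerase I subunit gene Polr1a (log2 fold change -0.38, adjusted p = 0.0285), Rrs1 (log2 fold change -0.40, adjusted p = 0.0435), Noc2l (log2 fold change -0.32, adjusted p = 0.0393), Ltv1 (log2 fold change -0.29, adjusted p = 0.0378) and Pes1 (log2 fold change -0.24, adjusted p = 0.0408) changed by less than 1.5-fold as well. Except for Nop14, those of these genes that the naming rule took were lost in 6 to 9 of the 10 leave-one-out fits, and without the libraries rich in other cells' transcripts only Nop14 of the list was called, while the median log2 fold change of the list was -0.32. Myc, which drives this program in dividing cells, was lower (log2 fold change -0.47, adjusted p = 0.0282, lost in 6 of 10 leave-one-out fits). The amino acid transporter gene Slc7a5 was lower (log2 fold change -0.37, adjusted p = 0.0396, lost in 8).

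Antigen receptor response genes had 2 higher (5.71%) and 1 lower (2.86%) of 35 tested (median -0.09), against 4.12% and 1.28% over all genes tested. Nr4a1, an immediate early gene of receptor signalling, had 147, 86.2, 109, 109 and 121 CPM in the OVA libraries, against 95.1, 67.5, 112, 181 and 137 CPM in the saline libraries (log2 fold change -0.01 ± 0.21 SE, adjusted p = 0.985). Cd69, an early activation antigen, had 279, 267, 276, 258 and 271 CPM in the OVA libraries, against 311, 307, 360, 273 and 297 CPM in the saline libraries (log2 fold change -0.19 ± 0.11 SE, adjusted p = 0.337). Egr2 had a log2 fold change of 0.00 (adjusted p = 0.993). The groups overlapped for all 3 genes, and none was called. The called members were Rgs16, a brake on G protein signalling (log2 fold change 1.77, adjusted p = 0.0171), Dusp6, a phosphatase of ERK (log2 fold change 0.39, adjusted p = 0.0277), and Myc. Rgs16 was lost without batch 1 saline replicate 3 (adjusted p = 0.0513) and without batch 2 saline replicate 2 (0.052), and Dusp6 in 6 of 10 leave-one-out fits. Of 24 genes of the receptor complex and proximal signalling only the kinase gene Fyn (4.17%) was called (log2 fold change 0.46, adjusted p = 0.0455, lost in 8 of 10).

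Metabolic lists had few calls in number. The share called higher was 13.6% for glycolysis and glucose uptake, 11.5% for cholesterol and fatty acid synthesis and 11.1% for amino acid and one-carbon genes. It was 5.88% for the tricarboxylic acid cycle, against 4.12% over all genes tested. The share called lower was 5.56% for amino acid and one-carbon genes, against 1.28% over all genes tested. Glycolysis and glucose uptake had 3 higher of 22 (median 0.07), led by the phosphofructokinase gene Pfkp with 344, 441, 430, 461 and 464 CPM in the OVA libraries, against 257, 237, 289, 290 and 353 CPM in the saline libraries (log2 fold change 0.59 ± 0.12 SE, adjusted p = 0.00934). The glucose transporter gene Slc2a1 was not called (log2 fold change -0.08, adjusted p = 0.684). Cholesterol and fatty acid synthesis had 3 higher of 26 (median -0.04), among them Scd2 (log2 fold change 0.63, adjusted p = 0.0162) and Fdft1 (log2 fold change 0.45, adjusted p = 0.0431), which were lost in 1 and 8 of 10 leave-one-out fits, Scd2 without batch 1 OVA replicate 2 (0.0567). The tricarboxylic acid cycle had 1 higher of 17, and nuclear genes of oxidative phosphorylation had 0 called of 28 (median 0.14). Amino acid and one-carbon genes had 2 higher and 1 lower of 18. The 13 mitochondrially encoded genes had 0 calls and went in opposite directions in the 2 batches. They took 0.86%, 0.935% and 0.553% of counts in batch 1 OVA libraries, against 1.03%, 1.4% and 0.914% in batch 1 saline libraries. In batch 2 they took 1.71% and 1.66% in OVA, against 0.797% and 0.583% in saline libraries. Their median log2 fold change of 0.24 covers both directions.

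Interferon-stimulated genes had 0 called of 25 tested (median 0.17), and Ifit1 had 97.5, 54.9, 112, 69.7 and 118 CPM in the OVA libraries, against 57.5, 99.9, 82.2, 71.7 and 91.8 CPM in the saline libraries (log2 fold change 0.16 ± 0.22 SE, adjusted p = 0.744). Interferon gamma GTPases and antigen presentation genes had 1 higher (3.85%) and 3 lower (11.5%) of 26 (median -0.05), against 4.12% and 1.28% over all genes tested. The lower ones were Gbp2 (log2 fold change -0.33, adjusted p = 0.0401), lost in 7 of 10 leave-one-out fits, and the near-identical pair Tgtp1 (log2 fold change -0.81, adjusted p = 0.0442) and Tgtp2 (log2 fold change -0.53, adjusted p = 0.0304), lost in 9 and 5, whose reads can be split between the copies. Heat shock genes had 0 called of 19 (median -0.19).

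**Figure D5:**
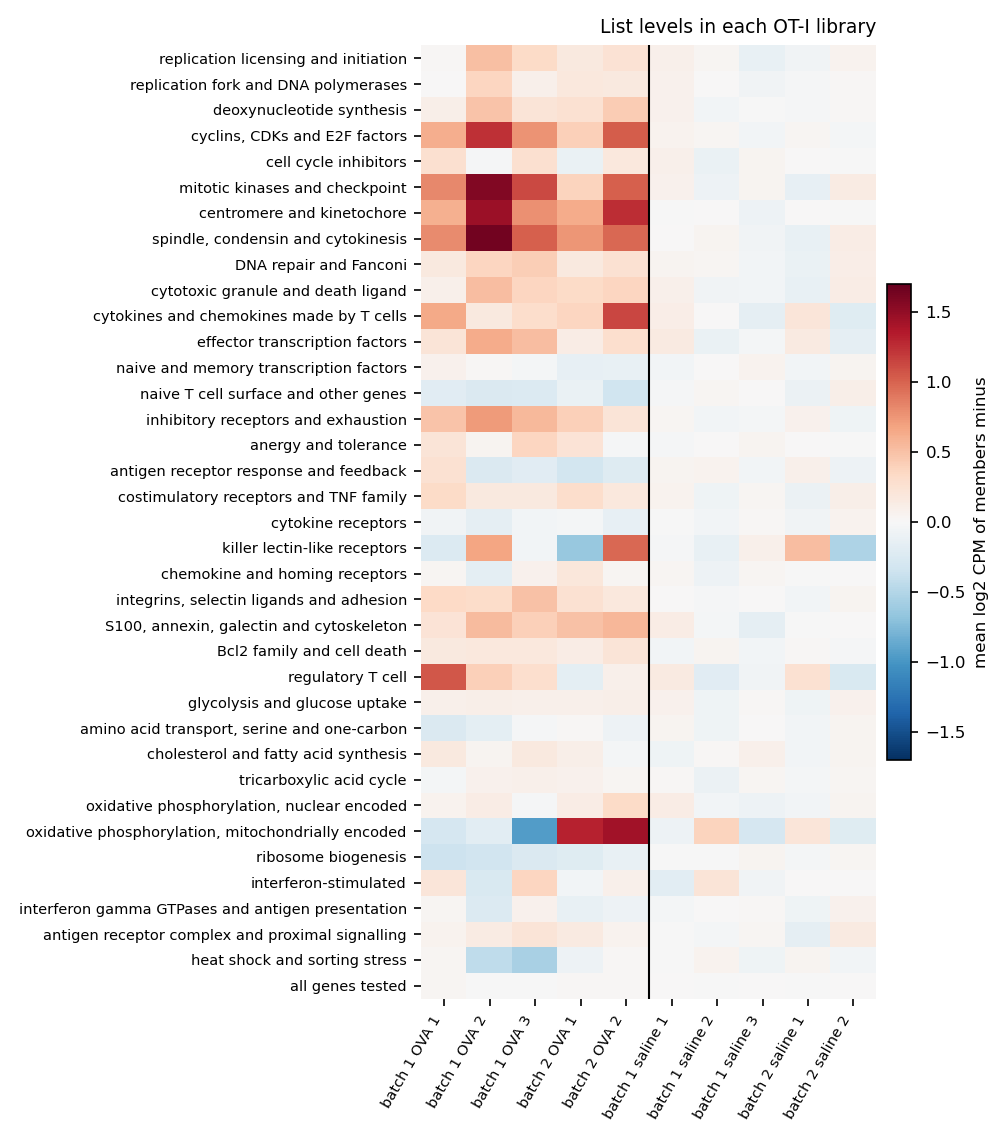
Median over each list's tested members of log2 CPM in each library minus the gene's saline mean in the same batch. The colour bar calls this median a mean. OVA libraries stand left of the line, saline libraries right. The division lists are highest in batch 1 OVA replicate 2, at 1.24 to 1.64, and mitochondrially encoded genes are at -0.95 to -0.18 in batch 1 OVA libraries and at 1.31 and 1.43 in batch 2 OVA libraries.

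Most called genes were in none of the lists, 415 of the 568 higher and 154 of the 176 lower genes. So were most genes tested, since the lists held 753 of 13802. The lists held a larger share of the called genes, 153 of the higher and 22 of the lower, and were chosen with earlier results of these data known. Among the 12 higher genes with the largest fold change and at least 10 CPM in the higher group, several encode proteins with less known roles in T cells. Chst2, a sulfotransferase that builds selectin ligands, had 24.1, 33.1, 24.3, 26.5 and 20.3 CPM in the OVA libraries, against 3.38, 1.55, 1.87, 3.64 and 6.25 CPM in the saline libraries (log2 fold change 3.09 ± 0.32 SE, adjusted p = 0.000234). Bspry, a B-box and SPRY domain gene, had 5.28, 16.2, 15.1, 17.6 and 17.8 CPM in the OVA libraries, against 1.59, 1.28, 1.22, 3.16 and 2.48 CPM in the saline libraries (log2 fold change 2.99 ± 0.37 SE, adjusted p = 0.000405). All OVA libraries were above all saline libraries for both. Ctla2a and Ctla2b, paralogs related to the propeptide of cathepsins, had log2 fold changes of 3.02 (adjusted p = 0.00128) and 3.00 (adjusted p = 0.000726). Gm49391 had a log2 fold change of 4.15 (adjusted p = 0.000726), and in GENCODE M21 its exons share 343 bases with Ctla2a and 1035 bases with Ctla2b on the same strand, so reads of the 3 genes cannot be fully told apart. Tspoap1 had 60.7, 5.39, 2.2, 2.21 and 5.88 CPM in the OVA libraries, against 1.2, 0.526, 0.521, 0.217 and 0.137 CPM in the saline libraries (log2 fold change 4.77 ± 1.06 SE, adjusted p = 0.0202). The library rich in Cd4, batch 1 OVA replicate 1, was over 10-fold above the other OVA libraries, and without the libraries rich in other cells' transcripts the log2 fold change was 2.58 (adjusted p = 0.0848). The call was also lost in 3 of 10 leave-one-out fits.

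Some of the smallest p-values belonged to genes of moderate change and even levels. Lxn, latexin, an inhibitor of carboxypeptidases, had 18.6, 22, 19.9, 21.3 and 23 CPM in the OVA libraries, against 6.91, 7.83, 6.54, 8.32 and 7.98 CPM in the saline libraries (log2 fold change 1.48 ± 0.17 SE, adjusted p = 0.000301). Stk39, a kinase of the cell volume response, had 57.7, 60.5, 56.7, 50.1 and 48.4 CPM in the OVA libraries, against 20, 19.3, 18.8, 16.4 and 17 CPM in the saline libraries (log2 fold change 1.58 ± 0.18 SE, adjusted p = 0.000323). Capn3, a calcium-dependent protease best known from muscle, had 14.1, 7.71, 12.2, 8.94 and 12.8 CPM in the OVA libraries, against 1.63, 2.08, 1.89, 3.88 and 1.73 CPM in the saline libraries (log2 fold change 2.36 ± 0.27 SE, adjusted p = 0.000323). In each of the 3 genes the OVA libraries stood clear of the saline libraries.

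Lower genes changed by little. Among those with at least 10 CPM in saline libraries the largest drop was that of Rgmb, a coreceptor of bone morphogenetic proteins, with 17.3, 12.8, 15.8, 21.7 and 8.13 CPM in the OVA libraries, against 34.2, 28.2, 30.5, 27.6 and 43.2 CPM in the saline libraries (log2 fold change -1.12 ± 0.28 SE, adjusted p = 0.0295), lost in 5 of 10 leave-one-out fits. Abhd15, an alpha/beta hydrolase domain gene, had 21.1, 16.8, 21.7, 21.1 and 11.9 CPM in the OVA libraries, against 40.6, 42.9, 35.7, 29.7 and 46.2 CPM in the saline libraries (log2 fold change -1.09 ± 0.21 SE, adjusted p = 0.00701). Stx1a, a syntaxin of vesicle fusion, had 9.6, 13.2, 9.7, 10 and 8.26 CPM in the OVA libraries, against 24, 22.2, 23.4, 13.3 and 17.6 CPM in the saline libraries (log2 fold change -0.95 ± 0.19 SE, adjusted p = 0.00721), and Pltp, which transfers phospholipids, had 12.7, 10.3, 11.4, 14 and 8.03 CPM in the OVA libraries, against 22.3, 20.2, 20.7, 16.1 and 25 CPM in the saline libraries (log2 fold change -0.89 ± 0.18 SE, adjusted p = 0.009). The groups did not overlap for these 4 genes. In GENCODE M21, Abhd15 shares exon bases with 3 genes of the other strand and Pltp with Ctsa, and the sources used here do not say whether counting used strand. Sh3bp5 (log2 fold change -0.87, adjusted p = 0.0215), 5830411N06Rik (log2 fold change -0.93, adjusted p = 0.0399), Plekha6 (log2 fold change -1.07, adjusted p = 0.0395), Ptk2, the focal adhesion kinase gene (log2 fold change -0.93, adjusted p = 0.0478), and Zfp354c (log2 fold change -0.87, adjusted p = 0.0295) were lost in 5, 8, 8, 9 and 7 of 10 leave-one-out fits. Trim30c (log2 fold change -0.91, adjusted p = 0.00731) and Adgrb2 (log2 fold change -0.89, adjusted p = 0.00717) were kept in all 10. The calls on Abhd15, Stx1a, Pltp and Trim30c were lost without the libraries rich in other cells' transcripts (adjusted p = 0.0605, 0.0616, 0.0612 and 0.0826), with log2 fold changes of -1.04, -0.92, -0.89 and -0.87 in that fit. The 5 genes lower by over 4-fold, Cyp27b1, Plvap, Naalad2, Mreg and Gm9918, were named after their values were seen. They averaged under 1 CPM in both groups.

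Of 13780 pairs of neighbouring tested genes, 68 had both genes called, where 5.39% of single genes tested were called. Some of these pairs changed in opposite directions, such as Pitrm1 (log2 fold change -0.35) and Pfkp (0.59). Whether neighbours were called together more often than other genes was not tested. The gene with the smallest p, Lag3 (GRCm38 chromosome 6, 124904361 to 124911705, minus strand), lies 1975 bases from Ptms (124913681 to 124920103, minus strand), which encodes parathymosin. Ptms had 5.68, 8.56, 4.94, 3.96 and 2.96 CPM in the OVA libraries, against 1.01, 0.782, 1.13, 0.866 and 0.633 CPM in the saline libraries (log2 fold change 2.51 ± 0.28 SE, adjusted p = 0.000301). Cd28, Ctla4 and Icos follow each other on chromosome 1 with log2 fold changes of 0.82, 2.65 and 0.55. Gzma and Gzmk are neighbours on chromosome 13, S100a4 and S100a6 on chromosome 3, and Nrp1 and Itgb1 on chromosome 8, 182290 bases apart. These pairs were singled out after their values were seen.

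The OVA response of OT-I cells was set against that of the OT-II cells of the same experiment, with 4 OVA and 5 saline OT-II libraries. This fit also held the pGal libraries of both cell types. In the test of the difference itself 5 of 14845 genes (0.0337%) were called by edgeR, and 1083 had an unadjusted p under 0.05. The difference was positive for Ptms (2.31 ± 0.37 SE, adjusted p = 0.0159), Nrp1 (3.18 ± 0.57, 0.0421), Zbtb32 (3.87 ± 0.7, 0.0421) and Lag3 (2.89 ± 0.54, 0.0444), so that the response was greater in OT-I cells. Ptms averaged 5.33 ± 2.2 CPM in OT-I OVA and 0.918 ± 0.202 CPM in OT-I saline libraries (SD, n = 5 each), and 4.43 ± 1.91 CPM in OT-II OVA (n = 4) and 4.14 ± 1.86 CPM in OT-II saline libraries (n = 5). Nrp1 averaged 46.7 ± 20.7 CPM in OT-I OVA and 5.65 ± 4.3 CPM in OT-I saline libraries, and 27.5 ± 2.84 CPM in OT-II OVA and 28.3 ± 5.74 CPM in OT-II saline libraries. Its OT-II values thus lay between the OT-I means in both groups. Il23r was called in the other direction (adjusted p = 0.0444), but it was at 0 in all 5 OT-II saline libraries, so its fitted difference is no bound. It averaged 0.888 ± 0.247 CPM in OT-I OVA and 2.95 ± 1.58 CPM in OT-I saline libraries. Leaving out 1 library at a time gave 0 to 6 called genes for this difference. Some OT-II libraries held other cells' transcripts too. OT-II batch 2 OVA replicate 2 had 24700 CPM of summed B cell markers and 114 CPM of Cd8a. OT-II batch 2 saline replicate 1 had 2580 CPM of summed B cell markers. Without the OT-I and OT-II libraries rich in other cells' transcripts 5 genes were called, of which 3 were among the 5 above.

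The difference between the batches in the OVA response was called for 1 of 13802 genes (0.00725%), and 1413 had an unadjusted p under 0.05. That gene was Rex2, which was at 0 in both batch 2 OVA libraries and at 1.43 ± 0.205 CPM in batch 2 saline libraries (SD, n = 2), against 1.85 ± 0.658 and 2.36 ± 0.588 CPM in OVA and saline libraries of batch 1 (SD, n = 3 each). With 0 in both of those OVA libraries, its fitted difference is no bound. Of the genes chosen by the naming rule, Chst2 and Zbtb32 had the smallest p for this difference, at -1.34 ± 0.48 and -1.71 ± 0.61 (SE), each with an adjusted p of 0.358.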

How the data were processed

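RNA of sorted OT-I cells was measured in 10 libraries, 5 OVA and 5 saline, each from 3 pooled mice. The authors deposited estimated counts per gene, and per the submitters' processing notes bcl2fastq, kallisto 0.46.1 and build GRCm38 were used. The sources used here do not give the summing of transcripts to genes or the use of strand. The deposited values were already whole numbers and were used as such. Genes missing from 1 of the tables (77) were left out, and 27 symbols stored as dates were matched by identifier.

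Counts were filtered with filterByExpr, TMM scaled and tested with edgeR 4.0.16 (R 4.3.3) by glmQLFit and glmQLFTest, fitting all prophylactic OT-I libraries with group and batch terms, with Benjamini-Hochberg adjustment over all genes tested and a threshold of 0.05. The difference between cell types was fitted over OT-I and OT-II libraries together. Alternatives used DESeq2 1.42.0 and limma 3.58.1, and the fits were tested on simulated data. Named genes were the 12 largest changes per direction at 10 CPM or more in the higher group, the 10 smallest p, up to 6 called members per list and a short panel. Members and lists were chosen with earlier results of these data known. Called list members named outside this rule, and the marker genes Foxp3, Flt3 and Ncr1, were chosen after their values were seen. Results for a few genes that the rule takes are not reported here. The p-values measure the spread between pooled libraries. Amplified reads are not independent molecules, so depth gives counting error only.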

Additional observations from a re-analysis of the deposited data

Results flagged for a closer look

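A library stood apart from the other 4 of its group, by a gap above 0.71 of the group's range, in 45 of 366 groups of values examined (12.3%). The cutoff gives about 1 in 20 for independent values of a normal distribution. The values here are CPM over 2 batches, and the groups share the same libraries, so that rate need not hold and the 2 shares are not comparable. Values are CPM, with the nearest other library of the group in parentheses after them. Batch 1 OVA replicate 1 was far above the other OVA libraries for Cd4 (159 CPM, nearest 7.28), Tspoap1 (60.7 CPM, nearest 5.88) and the CD4 lineage markers, summed (253 CPM, nearest 20.8). Batch 1 OVA replicate 1 was far below the other OVA libraries for Bspry (5.28 CPM, nearest 15.1), Cd8a (762 CPM, nearest 1070), Pfkp (344 CPM, nearest 430) and Runx2 (7.76 CPM, nearest 18.7). Batch 1 OVA replicate 2 was far above the other OVA libraries for Ccl5 (478 CPM, nearest 246), Cdc6 (28.8 CPM, nearest 15.5), Gzma (186 CPM, nearest 58.9), Gzmb (138 CPM, nearest 53.4), Gzmm (44.7 CPM, nearest 23.7) and Lgals1 (431 CPM, nearest 238). Batch 1 OVA replicate 3 was far above the other OVA libraries for Ctla4 (92.3 CPM, nearest 46.9) and Icam1 (218 CPM, nearest 160). Batch 2 OVA replicate 1 was far above the other OVA libraries for Plekha6 (13.3 CPM, nearest 7.31). Batch 2 OVA replicate 1 was far below the other OVA libraries for Myb (52.6 CPM, nearest 72.3). Batch 2 OVA replicate 2 was far above the other OVA libraries for Fancd2 (15 CPM, nearest 6.27), Ptk2 (13.3 CPM, nearest 6.94) and the B cell markers, summed (1780 CPM, nearest 292). Batch 1 saline replicate 1 was far above the other saline libraries for Id3 (223 CPM, nearest 191) and Nuf2 (2.96 CPM, nearest 2.4). Batch 1 saline replicate 3 was far above the other saline libraries for Brip1 (7.55 CPM, nearest 4.79). Batch 2 saline replicate 1 was far above the other saline libraries for Capn3 (3.88 CPM, nearest 2.08), Casp1 (13.5 CPM, nearest 7.58), Cd200 (16.3 CPM, nearest 6.03), Cd4 (38.2 CPM, nearest 2.74), Cxcr5 (68.7 CPM, nearest 26.8), Gzma (27.2 CPM, nearest 11.4), Il10ra (89.3 CPM, nearest 44.4), Klrg1 (5.44 CPM, nearest 1.65), Nrp1 (12.6 CPM, nearest 5.51), Slamf7 (30.5 CPM, nearest 15.8), the CD4 lineage markers, summed (73.7 CPM, nearest 32.5), the B cell markers, summed (5470 CPM, nearest 542), the plasma cell markers, summed (107 CPM, nearest 32) and the NK cell markers, summed (183 CPM, nearest 111). Batch 2 saline replicate 1 was far below the other saline libraries for Cd8a (826 CPM, nearest 1020). Batch 2 saline replicate 2 was far above the other saline libraries for Aurkb (8.8 CPM, nearest 3.85), Cdca8 (16.5 CPM, nearest 9.84), Gbp2 (192 CPM, nearest 143), Gzmk (2.93 CPM, nearest 0.918), Il2rb (600 CPM, nearest 527), Ptk2 (21.3 CPM, nearest 12.6) and Ube2c (5.87 CPM, nearest 3.64).

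By a test of the difference itself, OT-I and OT-II cells responded unequally to OVA for Ptms (2.31 on the log2 scale), Nrp1 (3.18), Zbtb32 (3.87), Lag3 (2.89) and Il23r (-9.17). Il23r was at 0 in all 5 OT-II saline libraries, so its value is no bound. The OT-I response was called different between batch 2 and batch 1 for Rex2 (-8.92). Rex2 was at 0 in both batch 2 OVA libraries, so its value is no bound either, and the call was lost in several alternatives given below. For the 13 mitochondrially encoded genes, the median log2 level relative to the saline mean of the batch was taken in each library. Averaged over libraries, this median was 1.84 higher in batch 2 OVA libraries than in batch 1 OVA libraries. The median was above saline in both batch 2 OVA libraries and below it in all 3 of batch 1, and this difference was not tested.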

How the results depend on the processing

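The count of 744 called genes (568 higher, 176 lower) became 717 with RLE factors (503 and 214), 571 with limma voom, 616 without a filter, 826 with at least 1 CPM in 5 libraries, 808 with the 10 libraries alone (549 and 259) and 637 in batch 1 alone. It moved further with DESeq2 (1356, of which 822 higher and 534 lower), without a batch term (229) and in batch 2 alone (19, with 2 libraries a group). With batch and replicate number as a replicate block it was 494, of which 482 were among the 744. The deviations of libraries with the same number correlated at -0.22 to 0.03. In batch 2, with 2 libraries a group, the deviations mirror each other, so both correlations are equal by construction. This check thus cannot decide whether the numbers pair the samples, and the labels do not say that they do. After seeing the data, fits without libraries rich in other cells' transcripts (312) and on counts thinned to equal totals (753) were added. Leaving out 1 library gave 316 to 888. The 5 genes called between OT-I and OT-II cells became 31 with DESeq2, 0 with limma voom, 1 with the replicate block, 0 without a batch term, 0 in batch 1 alone, 0 in batch 2 alone and 3 after thinning, and 0 to 6 with 1 library left out. At an unadjusted p under 0.05 edgeR had 1083. The 1 gene called between batches became 152 with DESeq2, 0 with limma voom, 0 with the replicate block, 0 with the 10 libraries alone, 0 without the libraries rich in other cells' transcripts and 0 after thinning. With 1 library left out it was 0 to 41, with 12 without batch 2 saline replicate 2, 6 without batch 2 saline replicate 1 and 41 without batch 2 OVA replicate 1. At an unadjusted p under 0.05 edgeR had 1413. Of 149 named and called genes, 90 kept the call without the libraries rich in other cells' transcripts and 14 kept it in every alternative run. Genes that changed sign were uncalled. In batch 1 alone Cd8a was at -0.10, Cd8b1 at -0.12 and Nr4a1 at 0.32. In batch 2 alone Cd4 was at -2.19, Il2ra at -0.13, Prdm1 at -0.49 and Slc2a1 at 0.07. Without the libraries rich in other cells' transcripts Cd4 was at -0.67, Ifit1 at -0.09 and Il2ra at -0.16, and after thinning Cd8a was at -0.01. With 1 library left out the ranges were -1.55 to 3.24 for Cd4, -0.36 to 0.97 for Il2ra, -0.09 to 0.1 for Cd8a, -0.08 to 0.11 for Cd8b1 and -0.16 to 0.12 for Nr4a1. Where no value above shows it, the cause was not tested.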
